A study of Mus musculus with 16 samples.

Results

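The genes described here encode the large families of enzymes that write and erase methyl and acetyl groups on histones, other proteins and DNA. They were chosen by name, not by behaviour: every gene symbol in the authors' normalized expression table that starts with Kdm, Kmt, Hdac, Sirt, Setd, Kat, Prmt, Dnmt or Tet followed by a digit, with 1 symbol left out. This gave 68 of the 11843 genes of that table, namely 16 Kdm, 5 Kmt, 11 Hdac, 7 Sirt, 9 Setd, 7 Kat, 7 Prmt, 3 Dnmt and 3 Tet genes. A further 4 symbols of the count table fit the same pattern but are not rows of the normalized table (Dnmt3aos, Dnmt3l, Kdm4d and Prmt8, each with at most 44 counts over all libraries), and these were not analysed here. All 68 genes passed the filter on low counts and were tested, so no gene was lost between the choice and the test.

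RNA was sequenced in bulk from type 1 conventional dendritic cells (cDC1s), the splenic cells that take up dying cells and present their antigens to CD8 T cells, in C57BL6 mice at steady state. The 16 libraries cross 2 genotypes, Xbp1fl and Xbp1flIre1fl, with 2 stages of maturity, Immature and Mature, at 4 libraries per combination. Xbp1fl denotes a loxP-flanked allele of Xbp1, whose protein drives the response to unfolded proteins, and Ire1fl one of Ern1, whose protein activates Xbp1 by splicing. Per the study's design text neither gene was deleted, so the mice of both genotypes count as functional wild type, and no Cre is named. Ages, sexes and the gates that parted the stages are not in the labels, and nothing there says how many animals a group holds. The error behind each p-value is therefore the spread among libraries, part of which may be technical.

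Histone methyltransferases of the Kmt and Setd families place methyl groups on lysines, and the Kdm enzymes remove them. Methylation of H3K4 marks promoters and enhancers in use, H3K27 methylation marks genes held silent by polycomb complexes, and H3K36 methylation marks transcribed gene bodies. Kat enzymes add acetyl groups, which the zinc-dependent Hdac enzymes and the NAD-dependent sirtuins (Sirt) take off. Prmt enzymes methylate arginines of histones, splicing factors and many other proteins, Dnmt enzymes methylate cytosine in DNA, and Tet enzymes oxidise that methyl group on the way to its removal. When cDC1s mature they stop taking up antigen, raise costimulatory proteins and the chemokine receptor Ccr7, and change the expression of many genes.

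Libraries held 13948232 to 17000763 counts, and 13865 to 14607 genes had a count. Maturation markers followed the labels: 11 of 12 were higher in mature cells and 1, Cd86, was lower (median log2 fold change 3.20). Of 12 cDC1 markers 7 were lower in mature cells, 2 were higher (Batf3 and Zbtb46) and 3 did not pass the test described below. Their summed level was 6187 to 9510 CPM in mature and 10410 to 11790 CPM in immature libraries. CPM here is the share of a library's counts on the usual CPM scale, with library totals adjusted by TMM. Transcripts of some other cell types also moved with maturity. All 10 B cell markers were higher in mature libraries (summed level 323 to 1106 CPM against 106 to 167 CPM), as were 8 of 11 macrophage markers (595 to 1244 CPM against 175 to 702 CPM), 6 of 8 T cell markers, 3 of 4 plasma cell markers and 4 of 8 cDC2 markers, with 1 cDC2 marker lower. Of 7 natural killer cell markers 1 was lower and none was higher (67 to 118 CPM in mature, 121 to 176 CPM in immature libraries). Of 7 plasmacytoid dendritic cell markers 1 was higher and 1 lower, as of 5 neutrophil markers, and neither of 2 erythroid markers passed. None of these B cell, macrophage or T cell markers was at 0 in all libraries, and the part of such transcripts in the changes below was not tested. All 26 cell cycle genes fell with maturity, from a summed 2215 to 2611 CPM in immature to 1104 to 1716 CPM in mature libraries. Finally, 4 libraries (Xbp1fl replicate 4 and Xbp1flIre1fl replicate 3, in both stages) held Xist, the RNA that coats an inactive X chromosome, at 61.4 to 69.7 CPM and at most 2 counts of 3 Y-linked genes, whereas the other 12 held at most 0.228 CPM of Xist and at least 1834 Y-linked counts. Each group thus holds 1 library of the first kind and 3 of the second, so its libraries do not all come from 1 animal. Results that rest on these 4 libraries are given with and without them.

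Mature was compared with immature, as the mean of both genotypes, with edgeR's quasi-likelihood test. Every adjusted p below comes from that test with Benjamini-Hochberg adjustment over the 11978 genes tested, unless another fit is named. Libraries were treated as unpaired except where a block is named. Levels written with ± are means and SD over the 8 libraries of a stage, and log2 fold changes are written with their standard error. A gene is said to rise, fall or be called at an adjusted p under 0.05. Of the 68 genes 30 rose and 23 fell in mature cells, and 15 did not pass the test. Called genes thus made up 77.9% of the 68, against a background of 67.6% of all genes tested; 44.1% of the 68 rose (background 33.4%) and 33.8% fell (background 34.2%). Changes over 2-fold were found for 8 genes that rose (background 12.3%) and 1 that fell (background 1.45%), which is 9 of 68 against 13.8% of all genes. The 8 mature and the 8 immature libraries did not overlap at all for 30 genes, 19 higher (background 18.0%) and 11 lower (background 15.0%), which is 44.1% against 33.0% of all genes. The median log2 fold change was 0.13 over the 68 genes and -0.01 over all genes. The share called lies near the background, so the count alone says little about these enzymes. The families are therefore described one by one, and a difference between families was not tested. The shares of all genes that rose and fell, 33.4% and 34.2%, are the background for each count below from this comparison. For each count below of genes whose stages did not overlap, the background is the 33.0% of all genes without overlap. No family or list was tested against these shares. The directions of weak changes depend on how libraries are scaled: with upper quartile scaling 23 of the 68 rose and 28 fell, and with library sizes alone 20 rose and 30 fell, since these scalings move the median of all genes by -0.12 and -0.22 on the log2 scale. In RNA from a whole sorted population, fewer cells carrying a transcript and less transcript per cell cannot be told apart.

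**Figure D1:**
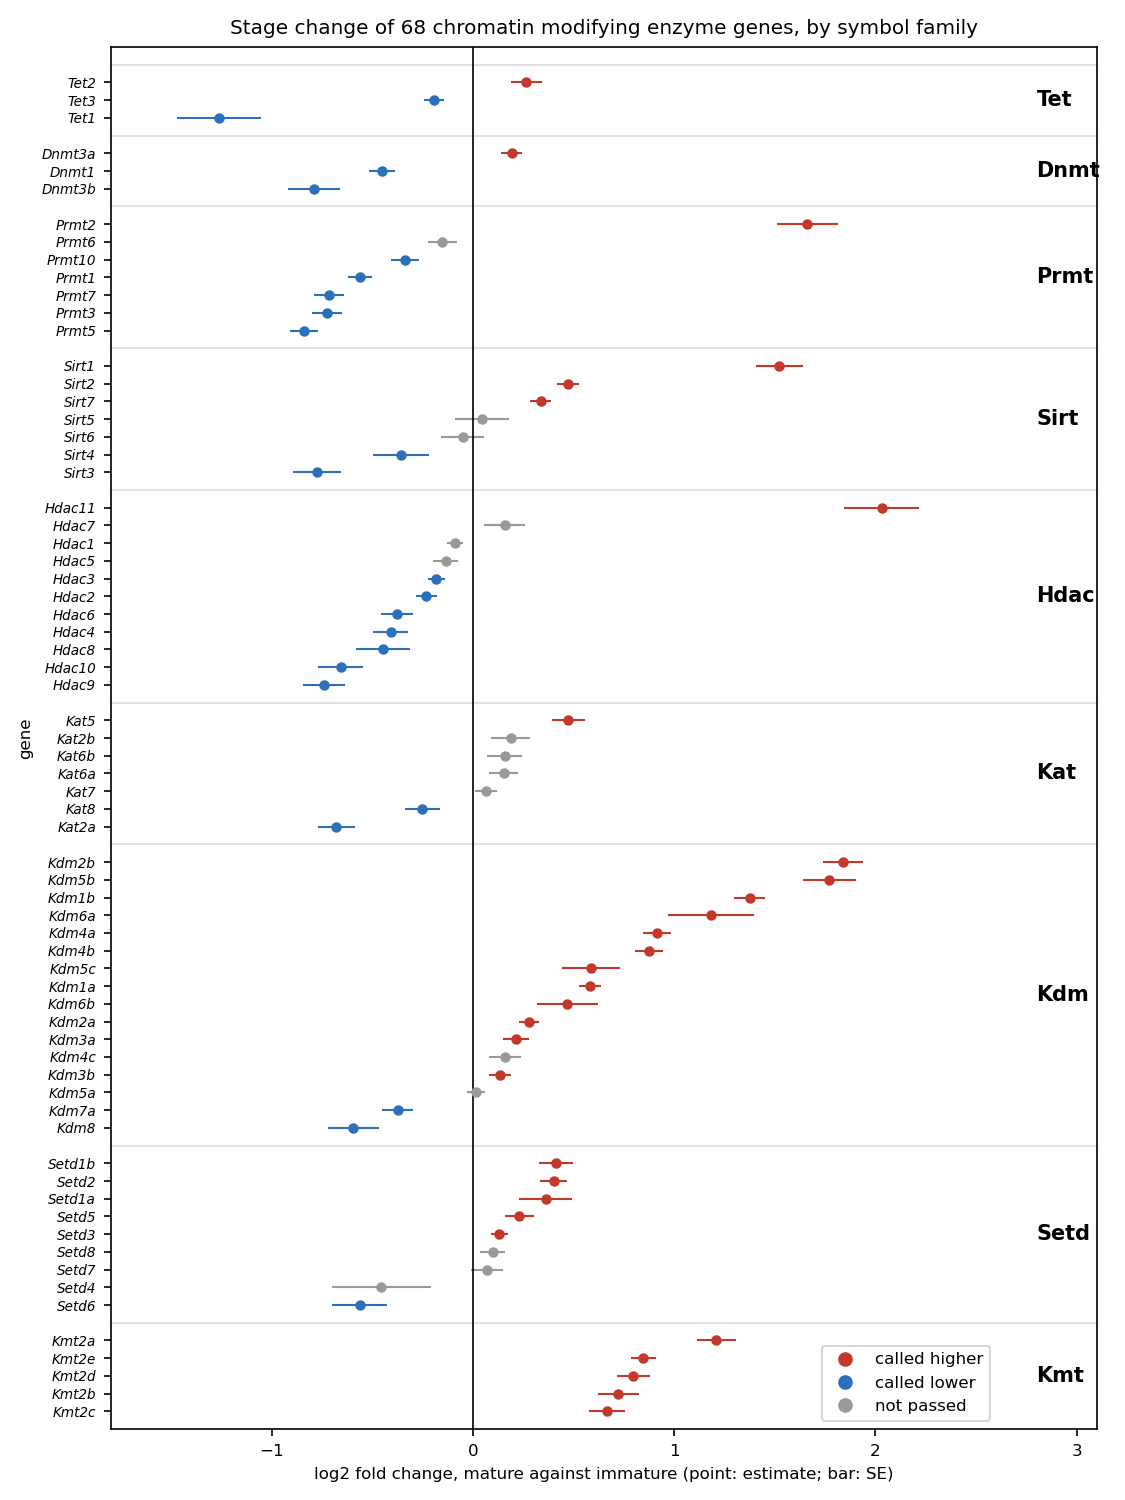
Log2 fold change of each of the 68 genes, mature against immature (x axis), grouped by symbol family, with the estimate as a point and the standard error as a bar; red points rose, blue points fell and grey points did not pass the test. All 5 Kmt genes and 12 of 16 Kdm genes are red, whereas 7 of 11 Hdac and 5 of 7 Prmt genes fell, with Hdac11 and Prmt2 standing far to the right of their families.

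Among the histone demethylases 12 of 16 rose and 2 fell (median log2 fold change 0.53; 0.40 with upper quartile scaling and 0.30 with library sizes alone). The most changed of them was Kdm2b (chr5:122870665-122989823, minus strand, mm10), a demethylase whose CXXC domain binds unmethylated CpG and brings a variant polycomb complex to CpG islands. Immature libraries held 69.3, 82.0 and 101 CPM of Kdm2b (lowest, median, highest) and mature libraries 231, 295 and 375 CPM. The lowest mature library thus lay far above the highest immature one, and Kdm2b rose by 1.84 ± 0.10 on the log2 scale (SE; adjusted p = 9.3e-11). Per exon length it became the second most abundant of the 68 transcripts in mature cells, at 27.1 ± 4.70 CPM per kb (SD, n = 8), from 7.61 ± 1.03 in immature cells. Its paralogue Kdm2a rose by only 0.28 ± 0.05 (adjusted p = 6.4e-05), and did not pass with library sizes alone (0.05, adjusted p = 0.345).

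Erasers of H3K4 methylation rose in 4 of 5 cases. Kdm1b (chr13:47043499-47085279, plus strand), a flavin-dependent demethylase known for its part in setting imprints in oocytes, had 34.8, 38.2 and 41.4 CPM in immature and 77.7, 102 and 117 CPM in mature libraries (lowest, median, highest). The stages did not overlap, and the rise was 1.38 ± 0.08 (adjusted p = 9.1e-11). Kdm5b (chr1:134560171-134635285, plus strand), which removes H3K4 trimethylation, went from 5.90, 7.20 and 8.85 CPM to 16.01, 24.1 and 32.7 CPM, again without overlap, and rose by 1.77 ± 0.13 (adjusted p = 2.6e-09). Within the Kdm5 genes the change was uneven. Kdm5a had more transcript per length in both stages (6.78 and 6.85 CPM per kb) than Kdm5b (0.439 and 1.496 CPM per kb). The log2 fold change of Kdm5a, 0.01 ± 0.04, did not pass (adjusted p = 0.80). A fall of Kdm5a was called with upper quartile scaling (-0.108, adjusted p = 0.0332) and with library sizes alone (-0.211, adjusted p = 0.000428). Kdm1a, the better known relative of Kdm1b, rose by 0.58 ± 0.05 (adjusted p = 3e-08) from 70.2 ± 4.34 to 105 ± 7.11 CPM (SD, n = 8).

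The H3K27 demethylases Kdm6a and Kdm6b both rose, and neither separated the stages fully. Kdm6a (chrX:18162575-18279936, plus strand), a subunit of the Kmt2c and Kmt2d complexes that is known to escape X inactivation, had 50.4, 54.2 and 86.4 CPM in immature and 85.2, 123 and 230 CPM in mature libraries. It rose by 1.18 ± 0.21 (adjusted p = 0.0002). Kdm6b, an H3K27 demethylase known to respond to inflammatory signals in macrophages, had 43.7, 66.2 and 84.2 CPM in immature and 57.7, 89.5 and 119 CPM in mature libraries, and the stages overlapped widely. Its rise of 0.47 ± 0.15 (adjusted p = 0.012) was 0.24 with library sizes alone, which did not pass (adjusted p = 0.13).

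The H3K9 and H3K36 demethylases Kdm4a and Kdm4b rose by 0.92 ± 0.07 and 0.87 ± 0.07 without overlap between stages, whereas Kdm4c did not pass, at 0.16 ± 0.08 (adjusted p = 0.084). The H3K9 demethylases Kdm3a and Kdm3b passed the test with changes of 0.21 and 0.13, and neither passed with upper quartile scaling or library sizes alone. The 2 Kdm genes that fell were Kdm7a, an eraser of H3K9 and H3K27 methylation, by 0.37 ± 0.08, and Kdm8, a JmjC protein of debated substrate, by 0.59 ± 0.13 (adjusted p = 0.00043). Kdm8 had 5.56, 6.82 and 7.59 CPM in immature and 2.70, 4.68 and 5.68 CPM in mature libraries, so the stages touched at their edges.

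**Figure D2:**
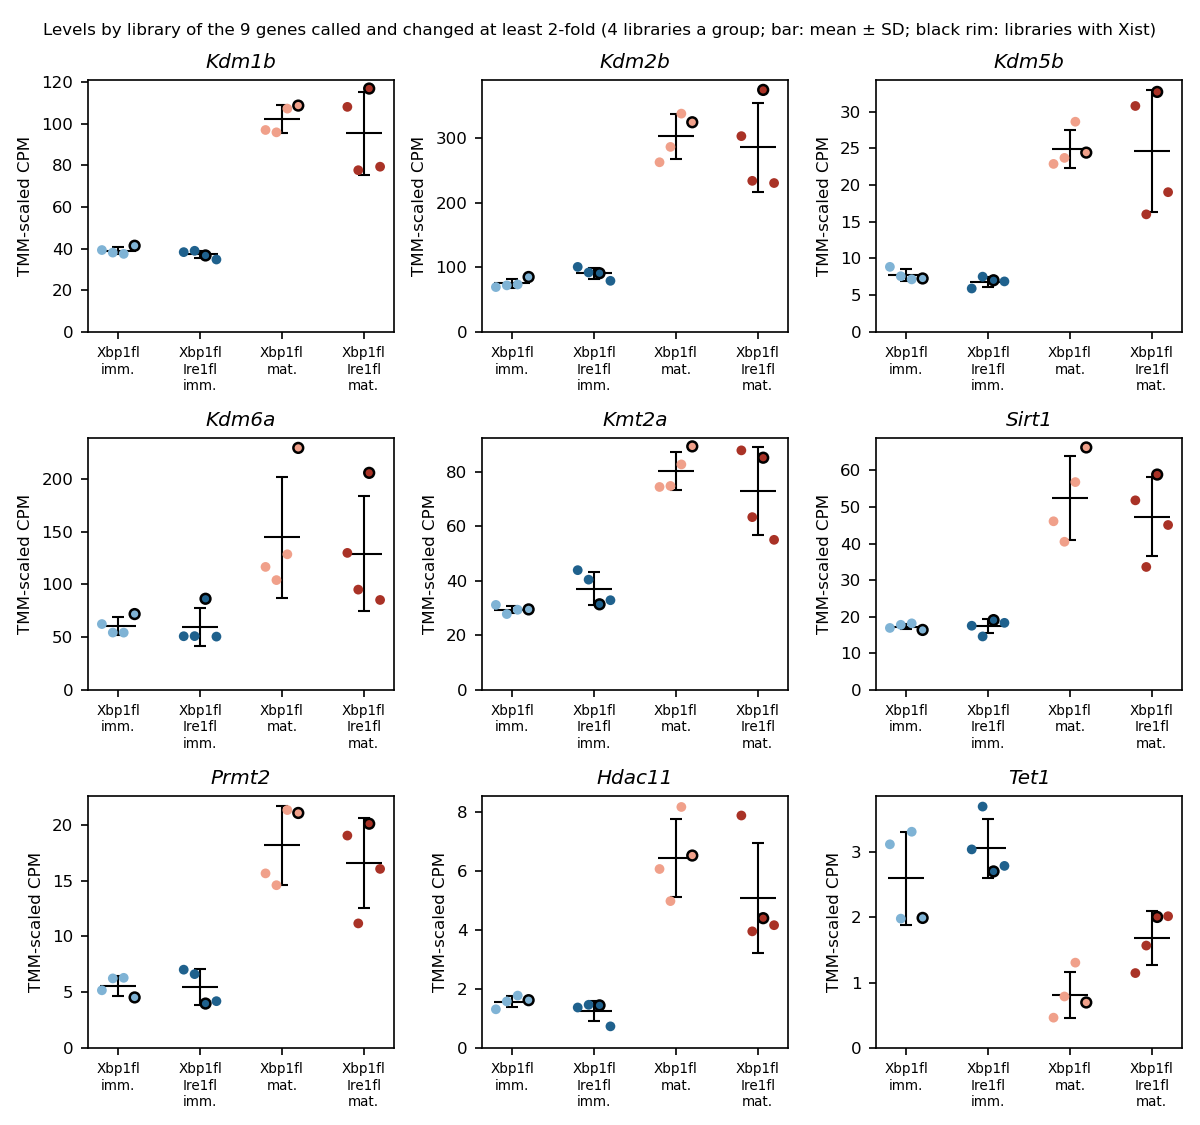
TMM-scaled CPM (y axis) of the 9 called genes with a change over 2-fold in each library, by group on the x axis (4 libraries a group; imm., immature; mat., mature), with the group mean and SD as bars and a black rim on the 4 libraries that hold Xist. In 7 of the panels no mature library reaches the range of the immature ones; Kdm6a and Tet1 are the exceptions, with Kdm6a highest in the rimmed libraries.

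The enzymes that write H3K4 methylation rose together. All 5 Kmt genes rose and separated the stages completely (33.0% of all genes tested had no overlap of stages). All 5 also rose with upper quartile scaling and with library sizes alone. Kmt2a (chr9:44803355-44881296, minus strand), the MLL1 enzyme that sustains Hox gene expression in blood progenitors, had 27.8, 31.3 and 43.9 CPM in immature and 55.0, 78.8 and 89.3 CPM in mature libraries (lowest, median, highest). It rose by 1.21 ± 0.10 (adjusted p = 7.5e-09). Kmt2e, a relative for which methyltransferase activity is doubtful, rose by 0.85 ± 0.06 (adjusted p = 2.4e-09), from 53.4, 56.0 and 61.8 CPM to 88.1, 102 and 124 CPM. Kmt2b rose by 0.72 ± 0.10, and Kmt2c and Kmt2d, the enzymes of enhancer H3K4 monomethylation, by 0.67 ± 0.09 and 0.80 ± 0.08. With Setd1a and Setd1b, the main enzymes of H3K4 trimethylation, all 6 genes of this role rose (median 0.69). Setd1b went from between 6.40 and 8.39 CPM to between 8.80 and 11.1 CPM, a rise of 0.41 ± 0.08 (adjusted p = 0.00029) that did not pass with library sizes alone (0.19, adjusted p = 0.068). Setd1a rose by 0.36 ± 0.13 (adjusted p = 0.022), and neither of the other scalings nor the fits without mature Xbp1flIre1fl replicate 3 or immature Xbp1fl replicate 3 called it.

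The partners of these H3K4 methyltransferases went both ways. Of 11 tested subunits of the COMPASS complexes 6 fell and 2 rose (median log2 fold change -0.29), where 34.2% and 33.4% of all genes did. Wdr5, the scaffold that binds the catalytic subunit, fell by 0.54 ± 0.07 (adjusted p = 3e-06) from 36.5 ± 4.00 to 25.1 ± 1.81 CPM (SD, n = 8), and Dpy30, Ash2l, Wdr82, Paxip1 and Hcfc1 also fell. Ncoa6, a subunit of the Kmt2c and Kmt2d complexes, rose by 0.59 ± 0.09 (adjusted p = 8e-06), and Men1, which tethers Kmt2a and Kmt2b, rose too.

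The other SET domain genes moved little. Over the Setd family 5 of 9 rose and 1 fell. The median was 0.13, but 0.01 with upper quartile scaling (2 rose and 2 fell) and -0.09 with library sizes alone (1 rose and 2 fell). Setd2, which places H3K36 trimethylation, rose by 0.40 ± 0.07, by 0.28 with upper quartile scaling and by 0.17 with library sizes alone, and passed in each. Setd6, a methyltransferase of non-histone proteins, was the only Setd gene to fall with TMM, by 0.56 ± 0.14 (adjusted p = 0.0015). It went from 7.45, 8.41 and 11.999 CPM to 3.89, 5.68 and 8.76 CPM with overlap. The scarce Setd4 was also called lower with upper quartile scaling (-0.574, adjusted p = 0.0455) and with library sizes alone (-0.675, adjusted p = 0.021). Setd8, now called Kmt5a, which monomethylates H4K20 during the cell cycle, was among the most abundant of the 68 per length in both stages (20.4 ± 1.62 and 21.8 ± 2.31 CPM per kb, SD, n = 8) and its log2 fold change of 0.10 ± 0.06 did not pass (adjusted p = 0.16).

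Histone deacetylases went the other way. A fall was called for 7 of the 11 Hdac genes and a rise for 1 (median -0.23), and the 3 called class I genes, both class IIb genes and 2 of 4 class IIa genes were all lower in mature cells. Hdac9 (class IIa, expressed with Mef2 factors) had 30.6, 36.5 and 45.6 CPM in immature and 15.8, 22.3 and 27.4 CPM in mature libraries, without overlap. It fell by 0.74 ± 0.11 (adjusted p = 7.8e-06). Hdac3, the catalytic subunit of the NCoR and SMRT corepressors, fell by only 0.18 ± 0.04 (adjusted p = 0.001), from 48.1, 52.6 and 54.9 CPM to 42.8, 46.4 and 48.4 CPM, and the stages overlapped by less than 1 CPM. Hdac1, the catalytic subunit of NuRD, Sin3 and CoREST complexes, was the most abundant of all 68 transcripts per length in both stages (46.4 ± 1.94 and 43.6 ± 2.51 CPM per kb). Its log2 fold change was -0.09 ± 0.04 (adjusted p = 0.060), and the fall passed with upper quartile scaling (-0.21, adjusted p = 0.00013) and with library sizes alone (-0.32, adjusted p = 3e-06).

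Hdac11, the lone class IV enzyme, known as a fatty acyl hydrolase of proteins, rose against the family. Its level (chr6:91156665-91174692, plus strand) was 0.725, 1.45 and 1.77 CPM in immature and 3.95, 5.52 and 8.17 CPM in mature libraries. The stages did not overlap, and the log2 fold change of 2.03 ± 0.19 was the highest of the 68 (adjusted p = 3.6e-08). It stayed a scarce transcript, at 1.498 ± 0.43 CPM per kb in mature cells against 43.6 for Hdac1; 3 counts, the floor of detection used here, are 0.176 to 0.215 CPM.

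The sirtuins moved both ways. Of the 4 nuclear or cytosolic ones 3 rose, and of the 3 mitochondrial ones 2 fell; the median of the family, 0.04, became negative with upper quartile scaling (-0.08) and with library sizes alone (-0.18). Sirt1 (chr10:63319005-63381704, minus strand), a nuclear deacetylase of histones, p53 and the RelA subunit of NF-kB, had 14.6, 17.6 and 19.04 CPM in immature and 33.6, 49.0 and 66.3 CPM in mature libraries. No libraries overlapped, and it rose by 1.52 ± 0.12 (adjusted p = 5e-09). Sirt7, the nucleolar sirtuin and the family's most abundant transcript per length (18.7 ± 1.24 and 23.6 ± 1.89 CPM per kb), rose by 0.34 ± 0.05 (adjusted p = 1.5e-05). Its stages overlapped in 1 mature library, at 101 CPM, against a highest immature value of 109 CPM. Sirt3, the main deacetylase of mitochondrial enzymes, fell by 0.78 ± 0.12 (adjusted p = 1.6e-05), from 5.24, 6.14 and 7.21 CPM to 2.40, 3.71 and 4.38 CPM without overlap. Sirt4 also fell, by 0.36 ± 0.14 (adjusted p = 0.031), and this call was lost in 5 of the 16 fits that left out 1 library and without the 4 Xist libraries (adjusted p = 0.080).

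Acetyltransferases had the lowest share of called genes: among 7 Kat genes 1 rose and 2 fell (median 0.15; 0.03 with upper quartile scaling and -0.07 with library sizes alone). Kat2a (GCN5), the acetyltransferase of the SAGA complex, fell by 0.68 ± 0.09 (adjusted p = 3.7e-06), from 53.1, 54.8 and 61.6 CPM to 28.1, 33.9 and 45.8 CPM, with no overlap. Its paralogue Kat2b did not pass, at 0.19 ± 0.10 (adjusted p = 0.096). Kat5 (TIP60), the acetyltransferase of the NuA4 complex that acts in DNA repair, rose by 0.47 ± 0.08 (adjusted p = 6.7e-05), from 12.8, 17.8 and 18.98 CPM to 19.4, 23.7 and 27.3 CPM, and its stages did not overlap. Kat7 (HBO1), the family's most abundant member per length (20.8 ± 1.01 and 21.8 ± 2.02 CPM per kb), did not pass either, at 0.06 ± 0.06 (adjusted p = 0.32). With library sizes alone a fall of Kat7 was called (-0.161, adjusted p = 0.0219). A list of 16 acetyltransferase and coactivator genes outside these symbol families holds p300, CBP, Ncoa1, Ncoa2 and Ncoa3. It also holds Hat1, Clock, Trrap, Ep400 and genes of the Brpf and Ing families. Of these 16 genes 9 rose and 2 fell (median 0.18, or -0.04 with library sizes alone), where 33.4% and 34.2% of all genes did. Among them Ncoa2, a coactivator of nuclear receptors, rose from 65.3 ± 3.47 to 137 ± 23.6 CPM (1.07 on the log2 scale, adjusted p = 1.5e-08). Its relative Ncoa3 rose from 189 ± 15.9 to 270 ± 26.4 CPM (0.52, adjusted p = 6.8e-07).

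Arginine methyltransferases had the lowest median of the 9 families. Among 7 Prmt genes 5 fell and only Prmt2 rose (median -0.56). For the 6 called genes no mature library overlapped an immature one, which held for 33.0% of all genes tested. Prmt5 (chr14:54507187-54517525, minus strand), which makes symmetric dimethylarginine on histones and on the Sm proteins of the spliceosome, had 38.1, 41.4 and 45.4 CPM in immature and 18.5, 23.4 and 27.9 CPM in mature libraries. It fell by 0.84 ± 0.07 (adjusted p = 9.9e-09). Prmt1, which makes most asymmetric dimethylarginine in cells, was the second most abundant of the 68 per length in immature cells (30.6 ± 2.15 CPM per kb) and stood at 20.8 ± 1.77 in mature ones. Its libraries held 90.7, 105 and 115 CPM in immature and 62.2, 71.9 and 82.4 CPM in mature cells, and it fell by 0.56 ± 0.06 (adjusted p = 1.8e-07). Prmt3, Prmt7 and Prmt10 (now Prmt9) fell by 0.72, 0.71 and 0.34. The fall of Prmt6 was 0.15 ± 0.07 (adjusted p = 0.072); it passed when the replicate number was a block within genotype (adjusted p = 0.013), with upper quartile scaling (-0.27, adjusted p = 0.00254) and with library sizes alone (-0.38, adjusted p = 0.000156).

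Prmt2 (chr10:76207222-76237865, minus strand), an enzyme of weak activity that acts as a coactivator of nuclear receptors, moved opposite to its family. Its libraries held 3.97, 5.70 and 7.02 CPM in immature and 11.2, 17.6 and 21.4 CPM in mature cells. The stages did not overlap, and Prmt2 rose by 1.66 ± 0.15 (adjusted p = 3.5e-08). In immature cells Prmt5 had 10.6 ± 0.71 CPM per kb against 1.63 ± 0.35 for Prmt2, and in mature cells the values were 5.95 ± 0.79 and 5.15 ± 1.07 (SD, n = 8), within their spread of each other.

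The promoters of genes that moved in opposite directions, or together, can be set side by side. RefSeq windows of 300 bases (250 before to 50 after the transcription start, build GRCm38.p6) were matched for 56 of the 68 genes. The windows of Kdm1b and Kdm5b, H3K4 demethylases that rose together, and of Prmt2 and Prmt5, which moved apart, are shown 5′ to 3′ on the strand of the gene, with each CpG dinucleotide in capitals because CpG-rich promoters are where CXXC proteins such as Kdm2b and Kmt2a bind.
Kdm1b chr13:47043249-47043548 (+): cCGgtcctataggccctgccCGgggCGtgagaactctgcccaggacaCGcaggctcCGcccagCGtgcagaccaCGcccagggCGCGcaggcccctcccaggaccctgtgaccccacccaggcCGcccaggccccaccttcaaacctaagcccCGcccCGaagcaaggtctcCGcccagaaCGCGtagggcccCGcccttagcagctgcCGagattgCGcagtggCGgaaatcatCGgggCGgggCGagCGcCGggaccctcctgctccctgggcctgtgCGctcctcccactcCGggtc
Kdm5b chr1:134559928-134560227 (+): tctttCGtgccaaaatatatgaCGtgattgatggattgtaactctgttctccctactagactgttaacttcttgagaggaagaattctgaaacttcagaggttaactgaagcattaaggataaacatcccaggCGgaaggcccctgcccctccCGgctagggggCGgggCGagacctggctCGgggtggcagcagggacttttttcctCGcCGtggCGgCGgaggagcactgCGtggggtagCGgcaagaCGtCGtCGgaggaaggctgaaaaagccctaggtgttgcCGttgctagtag
Prmt2 chr10:76237816-76238115 (-): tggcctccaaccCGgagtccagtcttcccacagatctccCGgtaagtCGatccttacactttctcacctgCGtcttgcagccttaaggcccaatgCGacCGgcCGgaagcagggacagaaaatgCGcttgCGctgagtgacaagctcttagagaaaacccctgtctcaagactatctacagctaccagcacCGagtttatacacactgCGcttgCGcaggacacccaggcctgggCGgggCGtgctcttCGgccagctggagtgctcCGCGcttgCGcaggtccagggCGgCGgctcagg
Prmt5 chr14:54517421-54517720 (-): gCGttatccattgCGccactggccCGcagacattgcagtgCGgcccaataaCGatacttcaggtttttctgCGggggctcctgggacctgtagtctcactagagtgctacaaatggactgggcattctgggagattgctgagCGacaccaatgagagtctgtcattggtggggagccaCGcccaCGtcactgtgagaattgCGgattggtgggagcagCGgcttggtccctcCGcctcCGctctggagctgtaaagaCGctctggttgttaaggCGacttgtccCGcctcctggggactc
These 4 windows held 26, 17, 20 and 16 CpG in that order. Prmt2 and Prmt5 were thus alike in CpG number while their transcripts went in opposite directions. Where a gene had several windows, the one with the most CpG was used, and a motif in any of them counted. Over the 56 genes the median was 23 CpG (29 for 23 genes that rose, 20 for 21 that fell), against 8 over the 27025 genes with a window. The ranges of rising and falling genes (1 to 57 and 3 to 65) overlapped almost entirely. Motifs were searched on both strands. The GC box GGGCGG was found for 40 of the 56 genes (71.4%, against 38.2% of all genes) and the E-box CACGTG for 8 (14.3%, against 8.09%). AGGTCA, the half-site of nuclear receptors such as the LXR named in the study's title, was found for 11 (19.6%, against 18.1%). The half-site was found for 3 of 23 rising genes, 3 of 21 falling genes and 5 of 12 genes that did not pass. Kdm1b held 6 GC boxes, Prmt2 held 2 and Kdm5b 1, and Prmt5 held none of these motifs. A match shows only these letters in the window, not binding.

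Of the 6 Dnmt and Tet genes 2 rose and 4 fell. Dnmt1, which copies methylation to the new strand after replication, fell by 0.45 ± 0.06 (adjusted p = 5.9e-06), from 117, 146 and 157 CPM to 93.6, 104 and 126 CPM. The stages overlapped, and the cell cycle genes given above fell in the same libraries; the part of that fall in the Dnmt1 result was not tested. Dnmt3b, a de novo methyltransferase, fell by 0.79 ± 0.13 (adjusted p = 2.9e-05), from 6.67, 7.38 and 8.45 CPM to 3.16, 4.19 and 5.84 CPM without overlap. Dnmt3a, the other de novo enzyme, rose by 0.19 ± 0.05 (adjusted p = 0.0034), from 80.1, 86.5 and 95.04 CPM to 88.5, 98.4 and 111 CPM. The value was 0.07 with upper quartile scaling (adjusted p = 0.22) and -0.03 with library sizes alone (adjusted p = 0.55). Within genotypes the rise of Dnmt3a was called in Xbp1fl alone.

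Tet1 (chr10:62804570-62908996, minus strand) was the 1 gene that fell over 2-fold. Xbp1fl immature libraries held 3.12, 1.98, 3.31 and 1.99 CPM and Xbp1fl mature ones 0.461, 0.786, 1.31 and 0.694 CPM. Xbp1flIre1fl immature libraries held 3.04, 3.70, 2.70 and 2.79 CPM and mature ones 1.15, 1.57, 2.01 and 2.02 CPM. Within each genotype the stages did not overlap, and across genotypes they overlapped by a few hundredths of a CPM; the fall was 1.26 ± 0.21 (adjusted p = 3.7e-05). Tet1 was the scarcest of the 68 per length, at 0.183 ± 0.039 CPM per kb in immature and 0.0807 ± 0.038 in mature cells. Tet2, often mutated in blood cancers and the Tet enzyme studied in dendritic cells and macrophages, rose by 0.27 ± 0.08 (adjusted p = 0.0056). It went from 34.7, 44.2 and 53.0 CPM to 44.1, 52.6 and 61.5 CPM with overlap. It did not pass with upper quartile scaling (0.14, adjusted p = 0.098) or library sizes alone (0.04, adjusted p = 0.66). Within genotypes the rise of Tet2 was called in Xbp1fl alone (34.7 to 43.4 CPM in immature, 45.5 to 61.5 CPM in mature libraries). In Xbp1flIre1fl the ranges were 45.0 to 53.0 CPM and 44.1 to 60.6 CPM. Tet3, the most abundant Tet gene per length (5.06 ± 0.47 and 4.41 ± 0.25 CPM per kb), fell by 0.19 ± 0.05 (adjusted p = 0.0023), from 74.8, 82.2 and 97.1 CPM to 69.0, 73.6 and 81.0 CPM. Among 10 partners of DNA methylation 5 rose and 2 fell (median 0.31), led by the stress and demethylation factor Gadd45b, from 55.7 ± 12.5 to 559 ± 129 CPM (3.33, adjusted p = 1.2e-10), and its relative Gadd45a, from 4.02 ± 0.78 to 10.1 ± 2.1 CPM (1.32, adjusted p = 3.8e-07).

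**Figure D3:**
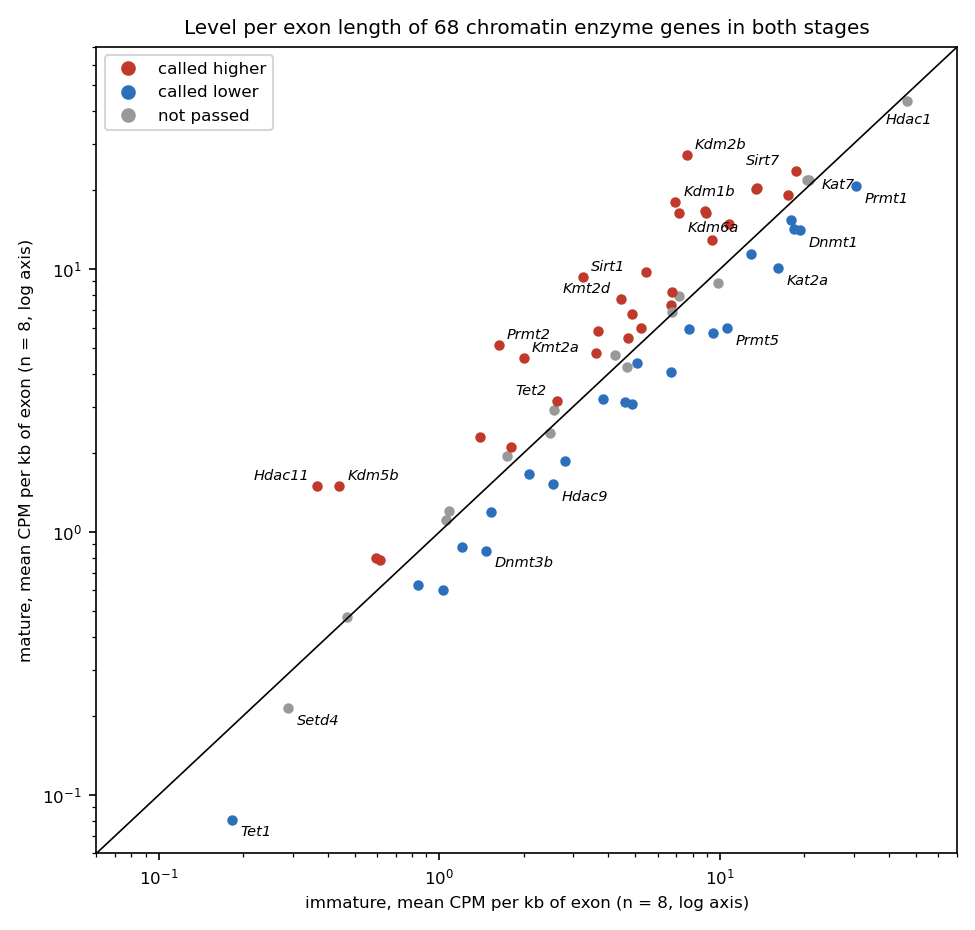
Mean level per kb of exon (TMM-scaled CPM per kb, n = 8 libraries) of each of the 68 genes in immature (x, log axis) and mature cells (y, log axis), with red, blue and grey for genes that rose, fell or did not pass and the line of equal level. Hdac1 is the most abundant in both stages, at 46.4 and 43.6 CPM per kb, Kdm2b climbs from 7.61 to 27.1, and Tet1 is the lowest point.

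Enzymes and partners outside these families were read from fixed lists. Over all genes tested 33.4% rose and 34.2% fell, and no list was tested against these shares. Of 30 polycomb genes 13 rose, 6 fell and 11 did not pass. The median was 0.07, but -0.05 with upper quartile scaling and -0.15 with library sizes alone, where 14 fell and 8 rose. Pcgf5, a RING finger subunit of variant PRC1, went from 14.8 ± 1.86 to 115 ± 27.04 CPM (2.96 on the log2 scale, adjusted p = 1.1e-10), and Aebp2, an accessory subunit of PRC2, from 78.9 ± 6.04 to 317 ± 65.2 CPM (2.01, adjusted p = 1.6e-10). Of 21 corepressor genes, which include partners of the Hdac proteins, 12 rose and 4 fell (median 0.24; 8 rose and 7 fell with upper quartile scaling, 6 and 9 with library sizes alone). Sap30, a Sin3 subunit, fell by 0.74 (adjusted p = 1e-07) and Mbd2, the methyl-CpG binding subunit of NuRD, rose by 0.38 (adjusted p = 4.6e-07). Of 19 other methyltransferases 6 rose and 7 fell; the 1 arginine enzyme among them, Carm1, did not pass (-0.08, adjusted p = 0.16). The lowest adjusted p-values were those of Ash1l, an H3K36 enzyme, which rose by 0.78 (adjusted p = 2.1e-08), and the H3K9 enzyme Ehmt2, which rose by 0.64 (adjusted p = 6.9e-08).

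Several enzymes above depend on metabolites, and the genes that supply these went both ways. Of 13 genes for the supply of S-adenosylmethionine, acetyl-CoA, NAD and 2-oxoglutarate 5 rose and 6 fell (median log2 fold change -0.02). Over all genes tested 33.4% rose and 34.2% fell, and a difference from these shares was not tested. Nampt, which makes a precursor of the NAD that sirtuins consume, rose from 120 ± 11.0 to 337 ± 62.2 CPM (1.49, adjusted p = 3.5e-09), beside the rise of Sirt1. Idh1, the cytosolic source of 2-oxoglutarate, the cosubstrate of the JmjC and Tet enzymes, rose from 35.1 ± 4.07 to 225 ± 57.0 CPM (2.68, adjusted p = 3.5e-10), whereas its mitochondrial relative Idh2 fell from 102 ± 4.53 to 53.8 ± 9.15 CPM (-0.92, adjusted p = 6.6e-08).

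Of the 68 genes 4 lie on the X chromosome: Kdm6a, Kdm5c, Hdac6 and Hdac8. Kdm6a and Kdm5c, both known to escape X inactivation in mice, were highest in the 4 libraries that hold Xist. Mature libraries with Xist had 230 and 206 CPM of Kdm6a against 85.2 to 130 CPM in the other 6, and immature ones 71.8 and 86.4 CPM against 50.4 to 62.3 CPM. For Kdm5c, an H3K4 demethylase, the mature values were 197 and 195 CPM against 109 to 140 CPM, and the immature ones 127 and 119 CPM against 80.8 to 91.3 CPM. Within each stage the kinds of library did not overlap for these 2 genes, and within each kind the stages did not overlap. The overlap of stages in Kdm6a came from the highest immature library, which held Xist, and the lowest mature one, which did not. Leaving out the 4 libraries, the rise was 1.03 for Kdm6a (adjusted p = 5.32e-07) and 0.54 for Kdm5c (adjusted p = 1.2e-05), against 1.18 and 0.59 with them. Mean mature levels were 2.75 times the immature ones in the Xist libraries and 2.04 times in the others for Kdm6a, and 1.60 and 1.46 times for Kdm5c; the difference between these ratios was not tested. Hdac6 and Hdac8 showed no such excess: their mean levels in Xist libraries were 0.846 to 0.961 times those in the others.

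**Figure D4:**
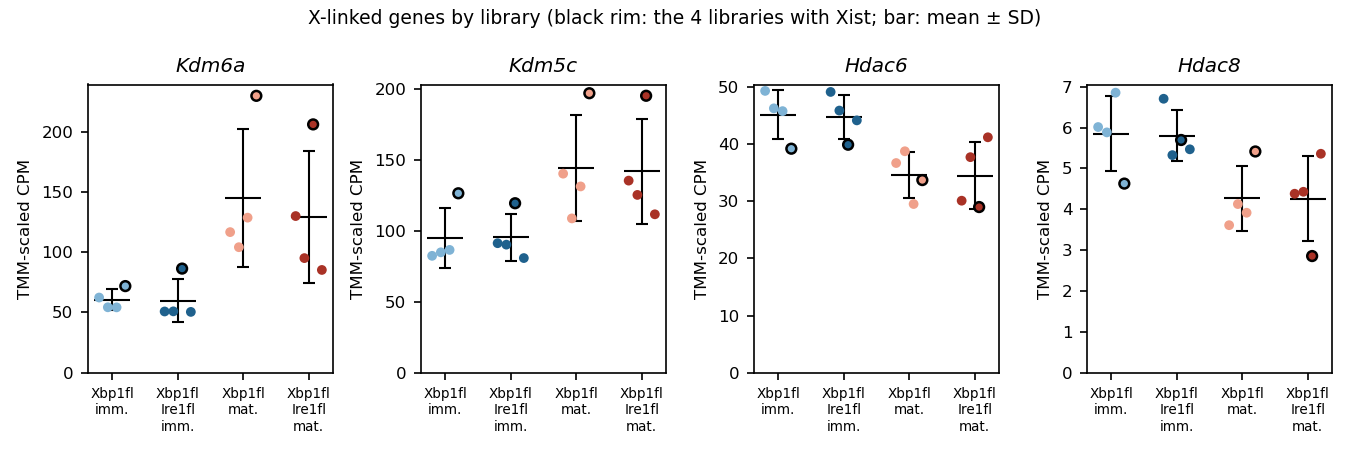
TMM-scaled CPM (y axis) of the 4 X-linked genes in each library, by group on the x axis, with the group mean and SD as bars and a black rim on the 4 libraries that hold Xist. The rimmed points are the highest of their group for Kdm6a and Kdm5c in all 4 groups; for Hdac8 this holds in the mature Xbp1fl group alone, and for Hdac6 in none.

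Stage was also compared within each genotype. In Xbp1fl 30 of the 68 genes rose and 20 fell (background 28.4% and 28.3% of all genes, 56.8% together), and in Xbp1flIre1fl 22 rose and 19 fell (background 27.4% and 26.1%, 53.5% together). Both comparisons called the same 39 genes in the same direction. The test of the difference between these stage changes called none of the 68 genes (background 0%); at an unadjusted p under 0.05 it picked 4, or 5.88% (2.75% of all genes): Kmt2a, Kmt2c, Kmt2d and Tet2. DESeq2 and limma also called none after adjustment and picked 5 before it, the same 4 and Sirt7. The estimate of this difference was negative, that is, a smaller rise or a larger fall in Xbp1flIre1fl, for all 5 Kmt genes and for 46 of the 68 genes, against 5851 of the 11978 genes tested.

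For Kmt2a the values behind this are as follows. Xbp1fl immature libraries held 31.1, 27.8, 29.4 and 29.5 CPM and mature ones 74.4, 74.8, 82.7 and 89.3 CPM, a rise of 1.45 ± 0.14. Xbp1flIre1fl immature libraries held 43.9, 40.4, 31.4 and 32.9 CPM and mature ones 87.9, 63.4, 85.2 and 55.0 CPM, a rise of 0.97 ± 0.14. The difference was -0.48 ± 0.19 (95% interval -0.88 to -0.07; unadjusted p = 0.023; adjusted p = 1). All 4 Xbp1flIre1fl immature libraries lay above the Xbp1fl ones for Kmt2a, replicates 1 and 2 by the most, and these 2 were also highest for Kmt2d (113 and 110 CPM against 73.9 to 90.4 CPM in the other 6). Mature replicates 2 and 4 of the same genotype held the least Kmt2a and also the least Ccr7 of all mature libraries (6574 and 4988 CPM against 8001 to 13425 CPM). These 2 libraries were the lowest of their group in 23 of the 30 genes that rose (76.7%; 65.3% of all genes that rose), and the highest in 11 of the 23 that fell (47.8%; 55.9%). Without them 32 of the 68 genes rose and 25 fell.

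**Figure D5:**
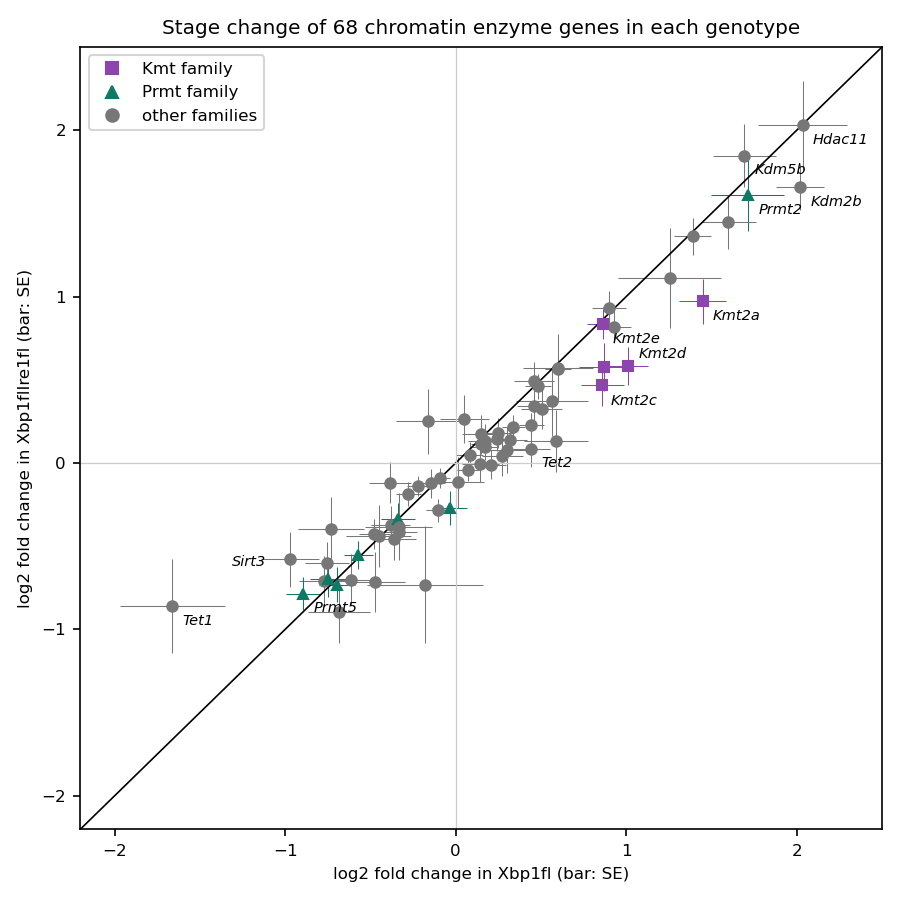
Log2 fold change between stages of each of the 68 genes in Xbp1fl (x) and in Xbp1flIre1fl (y), with standard errors as bars and the line of equal change; squares are Kmt genes, triangles Prmt genes and circles all others. The 5 squares lie on or below the line, from Kmt2e (0.86 and 0.83) to Kmt2a (1.45 and 0.97), and no point differs between genotypes after adjustment.

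Genotypes were compared within each stage as well. None of the 68 genes was called in immature cells (background 0.134%; 0.0584% higher and 0.0751% lower) or in mature cells (background 0.142%; 0.0501% higher and 0.0918% lower). At an unadjusted p under 0.05 edgeR picked 7 in immature cells, or 10.3% against 4.78% of all genes (Hdac5, Kmt2a, Kmt2c, Kmt2d, Sirt5, Tet2 and Tet3; DESeq2 and limma picked 8 each, with Kdm2b) and 3 in mature cells, or 4.41% against 6.29% of all genes (Hdac5, Prmt6 and Tet1; the same number by both other tools). Hdac5, a class IIa deacetylase, was the only gene picked in both stages. It held 42.9, 46.5, 48.2 and 43.5 CPM in Xbp1fl immature libraries and 40.1, 29.8, 39.6 and 37.6 CPM in Xbp1flIre1fl immature ones. In mature cells the values were 40.6, 42.7, 40.5 and 39.7 CPM against 37.1, 30.6, 33.0 and 34.3 CPM. The genotypes did not overlap in either stage, and the differences were -0.30 ± 0.09 (adjusted p = 0.58) and -0.28 ± 0.09 (adjusted p = 0.47). Between stages the value for Hdac5 was -0.14 ± 0.06 (adjusted p = 0.063), and this passed when the replicate number was a block within genotype (adjusted p = 0.030), with upper quartile scaling (-0.26, adjusted p = 0.00154) and with library sizes alone (-0.36, adjusted p = 7.11e-05).

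Transcript length ran alongside the direction of change. Of the 23 genes with the longest exon length (9.18 to 20.29 kb) 14 rose and 5 fell, and of the 23 shortest (1.90 to 5.18 kb) 7 rose and 12 fell. All genes were cut at the same inner bounds, with no lower limit for the short class and no upper limit for the long one. There 43.8% rose and 25.2% fell among 1501 long genes, and 30.3% rose and 36.9% fell among 7104 short ones. Across the 68 genes exon length and log2 fold change had a Pearson r of 0.20 and a Spearman rho of 0.27, and across 11889 genes 0.03 and 0.09; these are descriptions across genes that share libraries. The part of length in the directions of the families was not tested.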

How the data were processed

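Both deposited tables were used. One holds the authors' raw counts, as whole numbers for 24421 symbols, and the other their normalized log2 values for 11843 symbols. The submitters' processing notes name limma 3.42.2, SAMtools 0.1.19, TopHat2 2.1.0, Trimmomatic 0.35, FastQC 0.11.4 and mm10. The read counter, annotation, strand setting and handling of paralogues are not given in the sources used here. Log2 CPM from the counts, shifted by 1 value in each library, matched the deposited log2 values to a residual SD no higher than 0.0298.

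Counts were filtered with filterByExpr, scaled by TMM and fitted with edgeR 4.0.16 in R 4.3.3 (quasi-likelihood, robust, 1 mean per group, 12 residual degrees of freedom; Benjamini-Hochberg over 11978 genes). The SE is the absolute log2 fold change over the square root of F. Alternatives were DESeq2 1.42.0, limma 3.58.1, other scalings, no filter, replicate blocks and fits without each library. Exon lengths and coordinates are those of GENCODE on mm10. The floor of 3 counts covers counting error only. No pair of libraries within a group (24 pairs) agreed within sampling noise.

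Libraries of each group are numbered 1 to 4 in the labels. Over 7653 genes, deviations from group means correlated between same-numbered immature and mature libraries of a genotype in 8 of 8 pairs (r 0.179 to 0.487). Between genotypes, same-numbered libraries of a stage had r of -0.052 to 0.451, which reaches into that range. Within a genotype, each mature library had its highest r with the immature library of its own number (other numbers at most 0.189). The numbers thus appear to pair libraries within a genotype, a reading of the data and not of the labels. The main tests did not use this pairing, whereas the block within genotype did. With that block Hdac5, Kat6b and Prmt6 were also called. The block within genotype and the fit without the 4 Xist libraries were added after seeing the data.

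The gene families, lists and tests were chosen with earlier results of these data known. A rule named 30 of the 68 genes: called genes with a change of at least 1 on the log2 scale, the largest called rise and fall and the most abundant gene per length of each family, and Kdm6a, Kdm6b, Hdac3, Sirt1, Tet2, Dnmt1 and Dnmt3a. For each list of other genes it named the called pair with the lowest adjusted p. Other genes were named after their values were seen. A gene of the list of DNA methylation partners is not reported here.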

Additional observations from a re-analysis of the deposited data

Results flagged for a closer look

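For each gene and group of 4 libraries the highest or lowest value was compared with the other 3, and a library was picked out when its gap to the nearest, as a share of the whole range, was above Dixon's critical value for 4 samples. Of 272 groups 10 were picked (3.68%), where chance gives about 1 in 20. Of these, 2 were X-linked genes in libraries that hold Xist: Kdm5c in Xbp1fl immature replicate 4 (126.5 CPM against 82.4 to 86.6) and Kdm6a in Xbp1flIre1fl immature replicate 3 (86.4 CPM against 50.4 to 50.9). Setd1b was picked in both stages of Xbp1fl replicate 4, whose libraries hold Xist too. It had 8.39 CPM (others 6.40 to 6.64) in immature and 11.1 CPM (others 9.41 to 9.70) in mature cells. Kdm4c was picked in that mature library at 32.0 CPM (others 27.4 to 28.0).

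In Xbp1flIre1fl immature replicate 1 Hdac4 was high at 17.1 CPM (others 13.3 to 13.6) and Kdm3a low at 34.9 CPM (others 39.1 to 39.6). Hdac11 was low in Xbp1flIre1fl immature replicate 4 at 0.725 CPM (others 1.37 to 1.46) and high in mature replicate 1 of that genotype at 7.88 CPM (others 3.95 to 4.40). Sirt3 was low in Xbp1flIre1fl mature replicate 3, which also holds Xist, at 3.16 CPM (others 4.22 to 4.38).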

How the results depend on the processing

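The counts of rising and falling genes among the 68 stayed within 1.5 times the reported ones in every alternative run except 2, both with library sizes alone in place of TMM: 18 genes rose within Xbp1fl (30 with TMM) and 29 fell within Xbp1flIre1fl (19 with TMM). Of all called genes 49.4% were higher in mature cells with TMM, 38.0% with upper quartile scaling and 30.8% with library sizes alone, as the median of all genes moved by -0.121 and -0.224. With upper quartile scaling the sign turned for Kat7 (-0.0571), Kdm5a (-0.108), Setd7 (-0.0509), Setd8 (-0.0213) and Sirt5 (-0.0761). With library sizes alone it turned for Dnmt3a (-0.0335), Hdac7 (-0.0684), Kat2b (-0.0367), Kat6a (-0.0724), Kat6b (-0.0664), Kat7 (-0.161), Kdm3a (-0.0112), Kdm3b (-0.0919), Kdm4c (-0.0648), Kdm5a (-0.211), Setd3 (-0.0944), Setd7 (-0.156), Setd8 (-0.126) and Sirt5 (-0.179). Dnmt3a, Kdm3a, Kdm3b and Setd3 were called with TMM and the others were not. The turned values of Kdm5a passed with upper quartile scaling (adjusted p = 0.0332) and with library sizes alone (adjusted p = 0.000428). That of Kat7 passed with library sizes alone (adjusted p = 0.0219). Kdm5a turned with no filter on low counts (-0.0051), and Sirt5 without the 2 mature libraries of lowest Ccr7 (-0.046) and without the 4 libraries with Xist (-0.028). Leaving out each library in turn gave log2 fold changes of -0.0037 to 0.0288 for Kdm5a and -0.096 to 0.0042 for Sirt6, neither of them called. Apart from these scalings the causes were not tested.

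DESeq2, limma on the deposited log2 values and the fit without robust estimation kept the call and direction of all 68 genes. Leaving out each library in turn gave 29 to 32 rising and 22 to 25 falling genes; the calls of Kdm3b, Setd1a and Sirt4 were lost in some of these fits, that of Kdm3b in 11 of them. Without the 4 libraries with Xist 28 rose and 21 fell, and Kat8, Kdm3b, Setd5 and Sirt4 were no longer called. With the replicate number as a block, paired across all groups, 30 rose and 24 fell, the added gene being Prmt6 (adjusted p = 0.0324); with the block within genotype 31 rose and 25 fell, the added genes being Hdac5, Kat6b (adjusted p = 0.0374) and Prmt6, and neither block changed another call. Setd4, mature Tet1 and immature Hdac11, each with a mean under 2 CPM, rest on the fewest counts of the genes discussed here.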

Other observations

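Some chromatin genes outside the families also changed between stages. The shares of all genes tested were 33.4% rising and 34.2% falling, and no list below was compared with them by a test. Among 21 chromatin remodelling genes 7 rose, 1 fell and 13 were not called, whereas 67.6% of all genes were called. The 21 genes had a median log2 fold change of 0.08. With upper quartile scaling this median was -0.05, and 7 fell and 6 rose. With library sizes alone it was -0.15, and 10 fell and 5 rose. Smarce1, a subunit of BAF complexes, went from 80.9 ± 5.84 to 142 ± 21.1 CPM (SD, n = 8; 0.80, edgeR adjusted p = 3.1e-09), and Arid1b, another, from 148 ± 11.1 to 266 ± 34.9 CPM (0.85, edgeR adjusted p = 1.4e-08). Of 10 readers of acetylated histones 4 rose and 3 fell (2 and 5 with upper quartile scaling, 1 and 6 with library sizes alone), with Mllt1 higher (0.68, edgeR adjusted p = 1.4e-07) and Atad2, which is known to be expressed in cycling cells, lower (-0.79, edgeR adjusted p = 4.1e-07). Of 6 further genes of JmjC proteins, the fold of most Kdm enzymes, 3 rose and none fell, among them Jmjd1c (0.37) and Hif1an (0.25), an asparaginyl hydroxylase, whereas with library sizes alone none rose and 2 fell.

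Of 12 genes that respond to stress or tissue dissociation 4 rose and 3 fell (3 and 5 with library sizes alone), with Zfp36 at 1996 ± 160 and 3562 ± 506 CPM in immature and mature cells (0.83, edgeR adjusted p = 1.8e-08) and Junb at 1722 ± 125 and 2750 ± 289 CPM (0.67, edgeR adjusted p = 5.6e-08). Their part in the changes of chromatin enzyme genes was not tested. The floxed genes themselves were both lower in mature cells, Xbp1 by 0.45 ± 0.06 (edgeR adjusted p = 6.3e-06) and Ern1 by 0.33 ± 0.08 (edgeR adjusted p = 0.00095).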
